A study of Homo sapiens with 24 samples.

Results

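The signalling chain from the insulin and IGF receptors to the FOXO transcription factors was described through the trimethylation of lysine 4 on histone H3 (H3K4me3) at the promoters of 9 genes: INSR, IGF1R, IRS1, IRS2, PIK3R1, AKT1, AKT2, FOXO1 and FOXO3. The genes were chosen by name, from 19702 protein-coding genes in the annotation. For each gene, every H3K4me3 region that overlapped 2 kb on either side of the start of any protein-coding transcript was taken, which gave 21 of the 97545 regions in the table. Of these, the one with the largest mean is called the main region of the gene. A region at a start means one that overlaps such a window, whether or not it covers the start itself.

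The cells were EndoC-βH3, a human beta cell line derived from fetal pancreas, immortalized with hTERT and the SV40 Large T-antigen, and carrying the CreER recombinase, which 4-hydroxy tamoxifen (4-OHT) activates to remove both transgenes. All samples came from this line, labelled WT, so the control cells also carry the immortalizing genes and the silent recombinase. H3K4me3 was profiled in 4 samples of non-senescent control cells and 4 samples of cells made senescent with 4-OHT for 3 weeks, from 500000 cells each, by MINT-ChIP, a multiplexed form of ChIP-seq. The 16 samples of H3K27me3 and H3K9me3 in the series were not analysed here.

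The table holds 1 mean normalized count per region over both states and no value per sample. The values below are the authors' means, they carry no replicate error, and they describe where the mark lay in the line and not how it differed between the states. The depth of each sample is unknown. Regions were 346 to 27234 bp wide with a median of 677 bp, their means had a median of 4.40, and the means summed to 1470677. Levels were divided by region width when genes were compared, because mean and width rose together across genes (Spearman rho 0.874 over 14586 genes, which share the same libraries). Counts per kb still rose with width (rho 0.474), so genes of unlike width are not fully comparable on this scale either. The beta cell label was checked against marker genes. All 18 beta cell markers had a region at a start, where 74.0% of all protein-coding genes did, with a median of 25.1 mean normalized counts per kb. Of these, 11 lay above the 19.0 counts per kb that is the median of all genes, INS at 14.0, IAPP, SLC2A2, ABCC8, KCNJ11, G6PC2 and GLP1R lay below it, and the widest lay at ISL1, a transcription factor of islet cells, with a mean of 588. The other cell types (alpha, delta, acinar, ductal, immune, endothelial, hepatocyte, fibroblast, muscle) had a region at 12 of 21 markers, none above that median. PTPRC, CD3E and CD79A of immune cells were among those without a region. APOB of hepatocytes at 17.6 counts per kb, MYOD1 of muscle at 16.9 and PECAM1 of endothelium at 15.3 lay above INS. The rest of the 12 lay below INS. Counts per kb thus did not fully separate the cell types. The lowest of the beta cell markers was GLP1R, the receptor for the incretin GLP-1, with 4.65 counts per kb.

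Insulin and the insulin-like growth factors bind receptor tyrosine kinases encoded by INSR and IGF1R. The active receptors phosphorylate the adaptor proteins IRS1 and IRS2, which recruit phosphoinositide 3-kinase through its regulatory subunit, encoded by PIK3R1. The lipid that this kinase makes brings AKT1 and AKT2 to the membrane, where they are activated, and AKT phosphorylates FOXO1 and FOXO3 and so keeps these transcription factors out of the nucleus. Beta cells carry the chain themselves, and IRS2, AKT and FOXO1 are known for their roles in beta cell mass and identity. H3K4me3 lies over the nucleosomes next to transcription starts of active and poised genes.

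The sequence of 5 promoters is given because the regions treated them differently. The windows are the 250 bases upstream of the RefSeq start (GRCh38.p14), written 5′ to 3′ on the strand of the gene. Capitals mark the GC box GGGCGG, or its reverse complement CCGCCC, with overlapping matches joined. The windows of INSR (chr19:7294415-7294664, minus strand), IRS1 (chr2:226799821-226800070, minus strand) and FOXO1 (chr13:40666642-40666891, minus strand) lay inside an H3K4me3 region over all 250 bases. Those of IGF1R (chr15:98648289-98648538, plus strand) and IRS2 (chr13:109786584-109786833, minus strand) lay in none, with a region on either side.
INSR promoter: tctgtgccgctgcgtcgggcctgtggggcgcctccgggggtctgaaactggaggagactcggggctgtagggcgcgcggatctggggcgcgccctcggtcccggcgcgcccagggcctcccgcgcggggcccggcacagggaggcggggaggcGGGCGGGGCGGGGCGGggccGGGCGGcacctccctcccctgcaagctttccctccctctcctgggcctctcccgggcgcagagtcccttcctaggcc
IRS1 promoter: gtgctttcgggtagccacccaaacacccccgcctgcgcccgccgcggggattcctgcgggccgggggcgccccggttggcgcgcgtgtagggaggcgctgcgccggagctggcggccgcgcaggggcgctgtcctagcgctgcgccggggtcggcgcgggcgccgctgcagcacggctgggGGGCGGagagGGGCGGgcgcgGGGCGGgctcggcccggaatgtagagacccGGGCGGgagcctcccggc
FOXO1 promoter: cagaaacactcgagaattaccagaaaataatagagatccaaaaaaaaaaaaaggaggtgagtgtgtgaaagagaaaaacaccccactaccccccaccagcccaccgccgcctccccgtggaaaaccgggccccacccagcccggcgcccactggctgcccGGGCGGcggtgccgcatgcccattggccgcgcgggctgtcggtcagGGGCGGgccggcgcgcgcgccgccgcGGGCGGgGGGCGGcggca
IGF1R promoter: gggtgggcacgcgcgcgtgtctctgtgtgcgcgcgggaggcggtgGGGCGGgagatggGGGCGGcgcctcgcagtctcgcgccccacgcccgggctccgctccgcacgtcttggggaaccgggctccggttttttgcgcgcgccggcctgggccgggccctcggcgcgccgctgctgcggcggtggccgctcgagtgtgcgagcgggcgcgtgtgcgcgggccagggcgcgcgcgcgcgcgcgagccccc
IRS2 promoter: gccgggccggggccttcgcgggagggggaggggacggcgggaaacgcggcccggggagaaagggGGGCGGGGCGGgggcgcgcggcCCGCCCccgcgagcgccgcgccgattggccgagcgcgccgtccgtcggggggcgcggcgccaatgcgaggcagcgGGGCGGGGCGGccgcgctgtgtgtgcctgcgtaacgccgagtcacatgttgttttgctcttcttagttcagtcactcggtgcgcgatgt

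All 9 genes matched a RefSeq promoter, and 9 of 9 held a GC box in this window, against 56.7% of 15307 promoters of the same length. INSR, IRS1, FOXO1 and AKT2 had 4 matches each, IGF1R had 2, IRS2, PIK3R1 and FOXO3 had 5 each, and AKT1 had 7, over a median of 1 for all promoters. Matches were counted on both strands, with overlaps counted separately. None of the 9 windows held TATAAA (9.24% of all promoters), the E-box CACGTG (7.86%), the cyclic AMP element TGACGTCA (2.36%) or the FOXO site TGTTTAC (2.25%), which says only that these letters were not in these bases. CpG dinucleotides numbered 48 in the IGF1R window, 42 in IRS2, 39 in IRS1, 28 in INSR and 27 in FOXO1, against a median of 17. Among the other 4 genes, the covered FOXO3 window had 42 and the covered PIK3R1 window 37. The FOXO3 window lies at a RefSeq start 1092 bp from its canonical start. AKT1 had 39 and AKT2 had 18, in windows that a region covered only in part, over 24 and 115 bases. The CpG number did not separate covered from uncovered windows, for FOXO3 and IRS2 both had 42.

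Every gene of the chain had an H3K4me3 region within 2 kb of a start, though not always over it. The count was 9 of 9, where 74.0% of all protein-coding genes had a region. Their main regions had a median of 20.0 mean normalized counts per kb, close to the 19.0 of all genes with a region, whose quartiles were 12.4 and 26.8. They were wider, with a median width of 4225 bp against 2498 bp. A main region of at least 2 kb was found in 8 of 9 genes, against 62.9% of genes with a region. None of the 9 was shared with another protein-coding gene, where 24.9% of all main regions were. In level, 6 of 9 lay above the median of all genes per kb, and AKT2 alone lay above the upper quartile. With only regions lying mostly inside the window this fell to 3 of 9, and the median of the 9 genes was 16.0 against 18.8 for all genes. With only regions of a mean of at least 10, 4 of 9 lay above the median of all genes, which rose to 20.9. Under the other settings tried, 5 or 6 of 9 did.

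**Figure D1:**
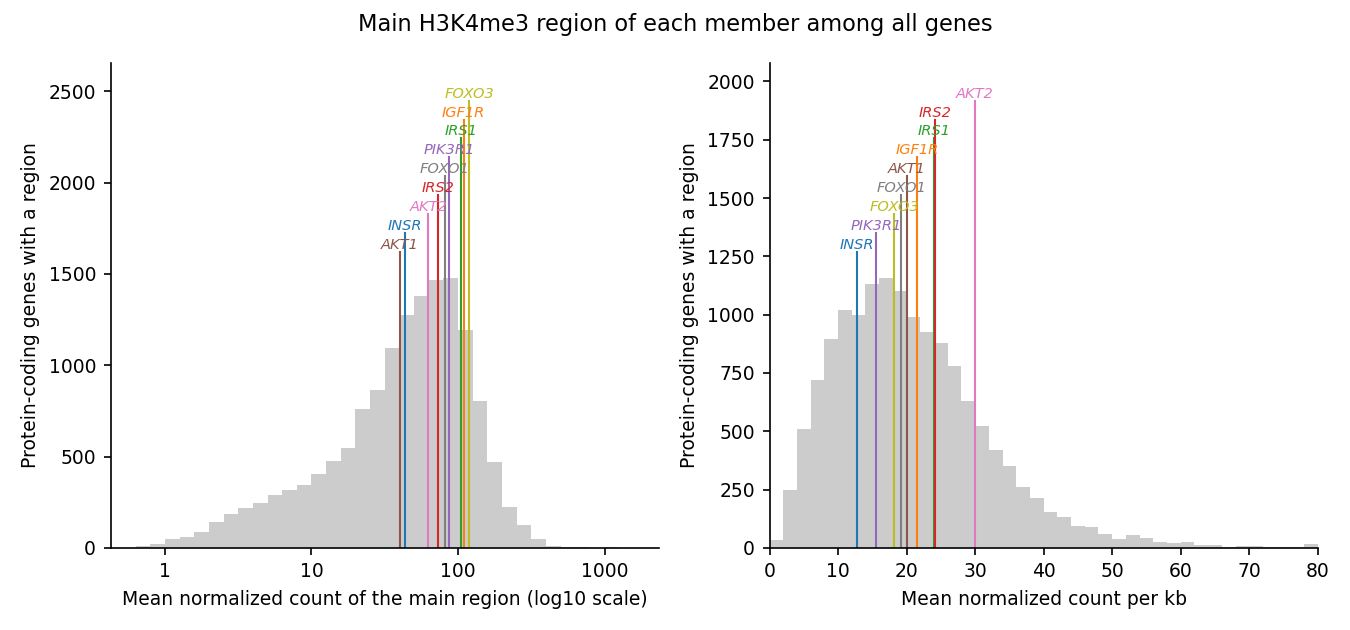
Histograms of the main H3K4me3 region of 14586 protein-coding genes, by mean normalized count on a log10 axis (left) and by mean normalized count per kb (right, with all genes above the axis in its last bin), with a coloured line at the value of each of the 9 genes. INSR is the lowest of the 9 per kb, at 12.7, and AKT2 the highest, at 30.0, and all 9 lie within the body of the distribution.

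In order of counts per kb, the main regions ran from INSR at 12.7 through PIK3R1 at 15.5, FOXO3 at 18.2, FOXO1 at 19.2, AKT1 at 20.0, IGF1R at 21.5, IRS1 at 24.0 and IRS2 at 24.1 to AKT2 at 30.0. With no spread between samples in the table, it cannot be said which neighbours in this order differ. In order of width the same regions ran from AKT1 at 1997 bp to FOXO3 at 6531 bp. FOXO3 was thus the widest, but its level per kb was below the median of all genes.

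The insulin receptor gene INSR (ENSG00000171105, chr19, minus strand) had 1 region, chr19:7292050-7295464. It was 3414 bp wide, reached from 1050 bp upstream to 2364 bp downstream of the canonical start, and covered exon 1 with its coding sequence and the starts of the transcripts for the 1382- and 1370-residue receptors. Its mean normalized count was 43.4, or 12.7 per kb, above 26.1% of genes with a region, while its width was above 71.8% of them. INSR therefore had a wide and dilute domain. The GC content of this region was 61.9%, higher than in 90.5% of main regions. The main region of FOXO3 had a like GC content of 62.1%, with 18.2 counts per kb. Over all genes, counts per kb fell with GC content (Spearman rho -0.359). Whether GC content had a part in the INSR level was not tested.

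IGF1R (ENSG00000140443, chr15, plus strand), the receptor for IGF1 and IGF2, had 3 regions. The main one, chr15:98649031-98654107, began 492 bp downstream of the start, was 5076 bp wide, and held the end of exon 1 but lay mostly in intron 1. Its mean was 109, or 21.5 per kb, which was 1.69 times the level per kb of INSR over a width 1.49 times as large. The order turned, to 0.78 times per kb, when only regions lying mostly inside the 2 kb window were kept, since this drops the main region of IGF1R. The second region, chr15:98646045-98647445, ended 1094 bp upstream of the start and had a mean of 13.9, or 9.91 per kb. It holds the start of IRAIN, a noncoding RNA gene on the opposite strand. The third, chr15:98887995-98888495, lay 1846 bp from the start of a transcript for a 212-residue protein, 242 kb inside the gene, with a mean of 2.26 in 500 bp. That value was below the 4.40 median of all regions. Of the signal summed over the IGF1R starts, 87.1% was in the main region and 11.1% in the second.

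The adaptor genes IRS1 and IRS2 had almost the same level per kb in their main regions and a different layout. The 1 region of IRS1 (ENSG00000169047, chr2, minus strand), chr2:226798450-226802811, covered the start, from 2991 bp upstream to 1370 bp downstream. It was 4361 bp wide with a mean of 105, or 24.0 per kb. A noncoding RNA gene on the opposite strand starts in the same region, so the signal cannot be assigned to IRS1 alone. The main region of IRS2 (ENSG00000185950, chr13, minus strand), chr13:109787132-109790174, lay wholly upstream of the gene and ended 549 bp before the start. It was 3042 bp wide with a mean of 73.4, or 24.1 per kb. The ratio of IRS1 to IRS2 was 0.993 per kb and 1.43 in width. That near-equality rests on the window, for the ratio per kb was 0.586 with windows of 5 kb and 3.01 with only regions lying mostly inside 2 kb. A second IRS2 region, chr13:109784986-109785669, lay in the coding sequence of exon 1, 914 bp downstream of the start, with a mean of 5.44, or 7.97 per kb.

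**Figure D2:**
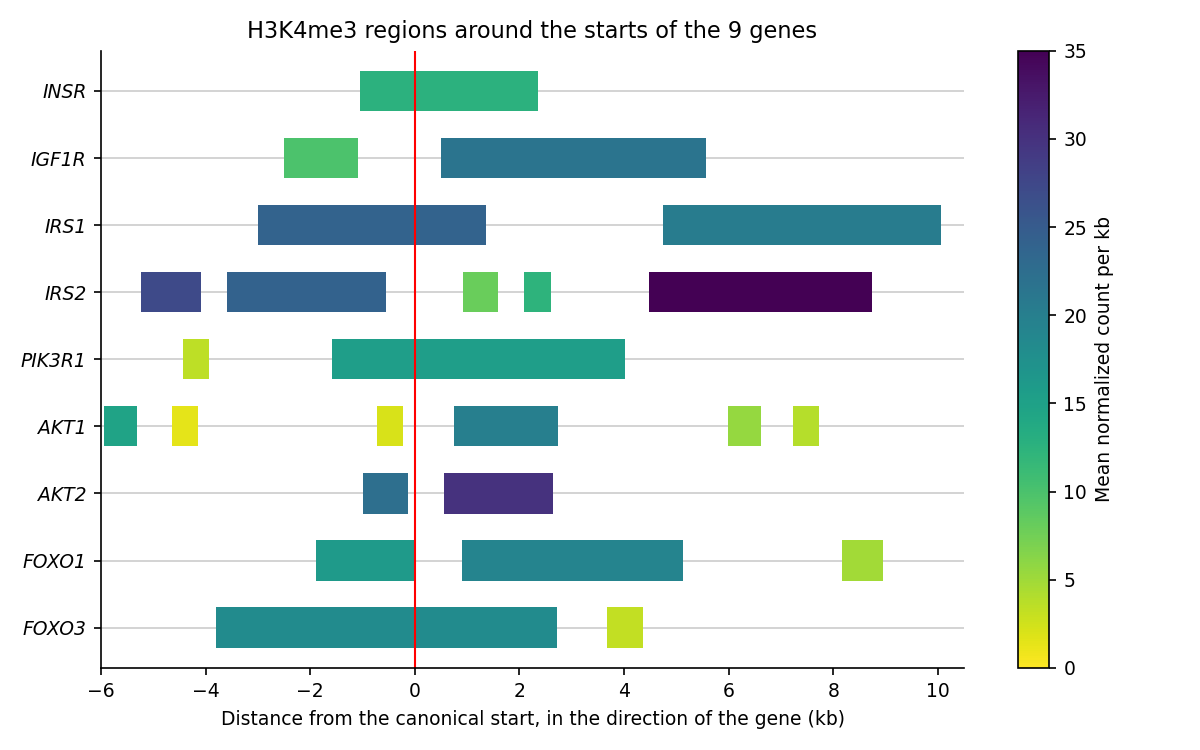
Maps of the H3K4me3 regions that reach within 9 kb of the canonical start (red line) of the 9 genes, with colour for the mean normalized count per kb. They are drawn to scale in the direction of each gene, from 6 kb upstream to 10.5 kb downstream. The PIK3R1 region that begins 9648 bp downstream is not drawn. INSR, IRS1, PIK3R1, FOXO1 and FOXO3 have a region over the start, FOXO1 by 25 bp, and IGF1R, IRS2, AKT1 and AKT2 have a gap there with a region on either side.

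PIK3R1 (ENSG00000145675, chr5, plus strand) encodes several forms of the regulatory subunit from different starts, and 6 regions lay at them, where 37.1% of genes with a region, and 6 of these 9 genes, had at least 2. The main region, chr5:68214166-68219779, covered 6 starts of long transcripts, among them that of the 724-residue subunit known as p85 alpha. It was 5613 bp wide with a mean of 87.1, or 15.5 per kb, and held 46.8% of the signal summed over the starts of the gene. The second, chr5:68287721-68289827, lay 71965 bp downstream of the canonical start and covered the start of a transcript for a 424-residue form. It had a mean of 53.8 in 2106 bp, or 25.6 per kb, so per kb it was denser than the main region. The third, chr5:68225404-68226877, covered exon 2 and the start of a 406-residue form, with a mean of 27.1, or 18.4 per kb.

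The other 3 PIK3R1 regions were weaker, with means of 11.5, 4.41 and 2.22. The last of them, chr5:68290965-68291602, covered the start for a 393-residue form. Both starts of transcripts for the 454-residue form, at chr5:68280291 and chr5:68290513, were in no region. The latter start lay between the second region and this last one, within 2 kb of each. In PIK3R1 the mark was thus found at starts of long and of short forms. Most of it by mean was in the regions over the starts of the long form and of the 424-residue form.

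AKT1 and AKT2 encode the kinases that act on the FOXO proteins, and both had a gap at the canonical start. The main region of AKT1 (ENSG00000142208, chr14, minus strand), chr14:104793003-104795000, lay 748 to 2745 bp downstream, over exon 2 and 5 alternative starts whose transcripts encode the same 480-residue kinase. Its mean was 39.9 in 1997 bp, or 20.0 per kb, the narrowest main region of the 9. The other AKT1 region, chr14:104795974-104796474, was 226 bp upstream of the start with a mean of 1.05. The main region of AKT2 (ENSG00000105221, chr19, minus strand), chr19:40282703-40284792, lay in intron 1, 553 to 2642 bp downstream, and came within 30 bp of an alternative start. Its mean was 62.7 in 2089 bp, or 30.0 per kb, above 82.4% of genes and 1.50 times the level per kb of AKT1. With the region nearest to a start in its place, AKT2 had 22.3 per kb, below the upper quartile of 26.8. The ratio to AKT1 was then 1.12.

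A second AKT2 region, chr19:40285480-40286327, ended 135 bp upstream of the canonical start and covered the start of a transcript for a 130-residue protein. It had a mean of 18.9, or 22.3 per kb, and a further one in exon 4 had 2.69. The main regions of the AKT genes were poor in CpG. Their observed over expected CpG ratios were 0.306 in AKT1 and 0.232 in AKT2, lower than in all but 7.41% and 4.16% of main regions, while those of the other 7 genes ran from 0.648 to 0.888. These regions lay past the gap at the start, whose own CpG ratio was 0.954 in AKT1 and 0.929 in AKT2. The main regions of IGF1R and FOXO1 also began downstream of the start, but had ratios of 0.804 and 0.783. Whether this position had a part in the low ratios was not tested.

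FOXO1 and FOXO3, the transcription factors at the end of the chain, had the mark over wide domains. FOXO1 (ENSG00000150907, chr13, minus strand) had 2 regions. The main one, chr13:40661519-40665744, lay 897 to 5122 bp downstream, over the last coding bases of exon 1 and mostly in intron 1, was 4225 bp wide, and had a mean of 81.0, or 19.2 per kb. The second, chr13:40666616-40668525, was upstream and covered the start by 25 bp, with a mean of 30.6, or 16.0 per kb. FOXO3 (ENSG00000118689, chr6, plus strand) had 1 region, chr6:108557112-108563643, over 2 starts of transcripts for the same 673-residue protein. It was 6531 bp wide, wider than 96.8% of main regions, with a mean of 119, or 18.2 per kb. A noncoding RNA gene on the opposite strand starts inside it, and its CpG ratio of 0.888 was higher than in 98.3% of main regions. FOXO3 over FOXO1 gave 0.947 per kb and 1.55 in width, and the ratio per kb was 1.13 with only regions lying mostly inside the window or with the region nearest to a start.

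Gaps at the start set 4 of the genes apart from the other 5. The canonical start of IGF1R, IRS2, AKT1 and AKT2 lay in no region but between 2 regions within 2 kb, a layout found in 12.8% of genes with a region. The upstream neighbour in AKT1 was the weak 500 bp region with a mean of 1.05, and the downstream one in IRS2 had 5.44. Without regions of 500 bp the layout was left in 3 of the 9 genes, against 11.1% of all, and with regions of a mean of at least 10 in AKT2 and IGF1R only, against 7.03%. The gaps were 1586 bp in IGF1R, 1463 bp in IRS2, 974 bp in AKT1 and 688 bp in AKT2. Their GC contents were 75.5%, 76.6%, 82.1% and 74.0%. Counting any start, the main region covered one in 5 of 9 genes, where 76.6% of main regions did. FOXO1 had a similar gap of 872 bp directly after the 25 bp of covered start, with a GC content of 76.5%.

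Across all genes this layout went with GC content. It was found for 1.18% of starts with 50 to 60% GC in the 500 bases around them, for 15.7% at 70 to 75%, for 41.9% at 75 to 80% and for 58.1% of those above 80%. All 9 genes had GC-rich starts, from 70.8% in AKT2 and 71.0% in FOXO1 to 84.8% in AKT1, where the median of all genes was 67.0%. INSR at 77.8% and PIK3R1 at 78.4% were nevertheless covered, while AKT2 at 70.8% was not. Whether nucleosomes, the nuclease digest or the recovery of GC-rich fragments had a part in these gaps was not tested.

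**Figure D3:**
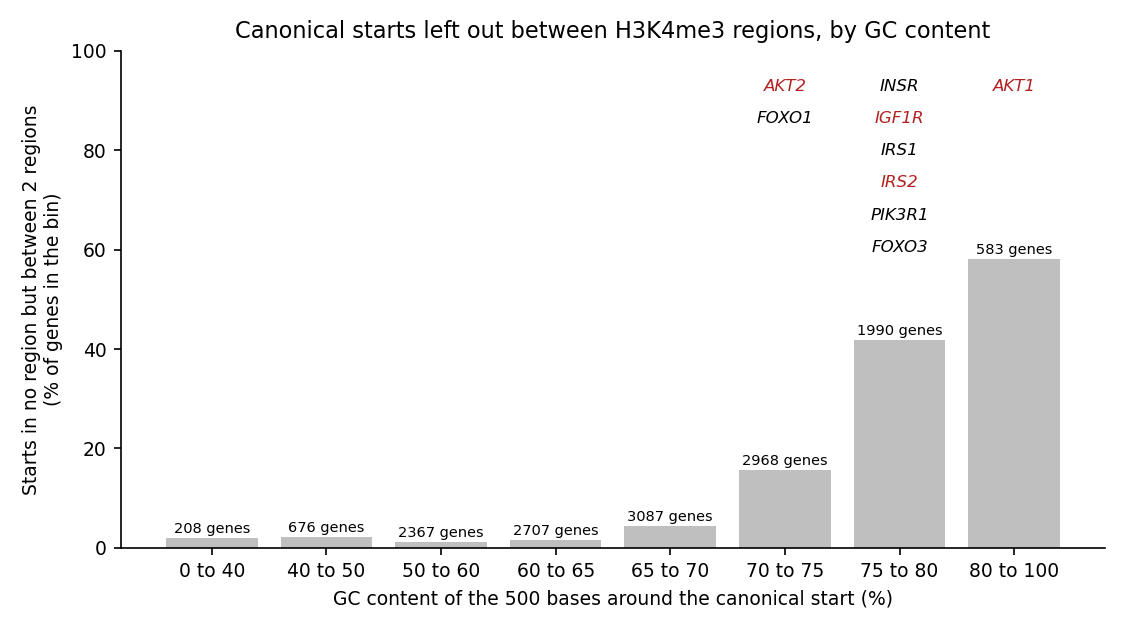
Bars give the share of genes whose canonical start is in no H3K4me3 region but between 2 regions, by GC content of the 500 bases around the start, with the number of genes in each bin above the bar. The 9 genes are written over their bins, in red where they have the gap, and the bars rise from 1.18% at 50 to 60% GC to 58.1% above 80%.

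Some of the genes had strong regions outside the promoter windows. Inside the 9 genes and outside the windows lay 93 further regions in 8 genes, 25 of them exactly 500 bp wide, and AKT2 had none. In 3 genes, IGF1R, IRS1 and IRS2, the strongest of these had a higher mean than the main region, which was so in 11.3% of 9566 genes of at least 20 kb. With windows of 5 kb, which take in the strong regions of IRS1 and IRS2, it was so in IGF1R alone, against 10.6% of long genes.

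IGF1R held 54 of these regions, 17.1 per 100 kb of gene, above 97.4% of the long genes, whose median was 2.45. The 4 strongest lay in intron 2. A broad pair, chr15:98784840-98793933 and chr15:98794170-98801590, was centred 141 and 149 kb into the gene, with means of 122 and 114 but only 13.5 and 15.4 per kb. A narrow pair, chr15:98850930-98853862 and chr15:98864850-98867204, had means of 108 and 88.3, or 37.0 and 37.5 per kb. Per kb these narrow regions were thus above the IGF1R promoter region at 21.5. No start of a protein-coding transcript of IGF1R lies within 2 kb of them.

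IRS1 and IRS2 each had a strong region just past their windows. In IRS1, chr2:226789764-226795078 lay 4.742 to 10.056 kb downstream, touched the end of exon 1 and otherwise lay in intron 1, and had a mean of 109, or 20.5 per kb, beside 105 in the main region. The 3372 bp between both regions, with 63.3% GC, lay within exon 1, over coding sequence. In IRS2, chr13:109777836-109782100 lay 4.483 to 8.747 kb downstream, likewise touching the end of exon 1 and otherwise in intron 1, and had a mean of 149, or 34.9 per kb, beside 73.4 and 24.1 per kb. This was the highest mean of any region in or at the 9 genes. Between it and the IRS2 start lay the downstream part of the gap at the start, and weak regions with means of 5.44 and 6.37. Past that gap lay further GC-rich gaps of 494 and 1879 bp, with 79.4% and 73.2% GC.

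INSR had 7 regions inside the gene. The strongest, both in intron 2, were chr19:7196806-7198427 with a mean of 38.4, or 23.7 per kb, and chr19:7202932-7203958 with 26.4, or 25.8 per kb, more than 90 kb from the start. Both were denser than the INSR promoter region at 12.7 per kb. FOXO1 had 16 regions inside the gene, 14.4 per 100 kb and above 96.7% of long genes, but the strongest had a mean of only 20.7, or 12.1 per kb. Those of PIK3R1, AKT1 and FOXO3 reached 8.45, 3.53 and 2.21, far below their main regions. FOXO3 thus had nearly all its signal in the promoter domain, and IGF1R had 4 regions of like mean in intron 2, among many weaker ones with a median of 5.84 over all 54.

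**Figure D4:**
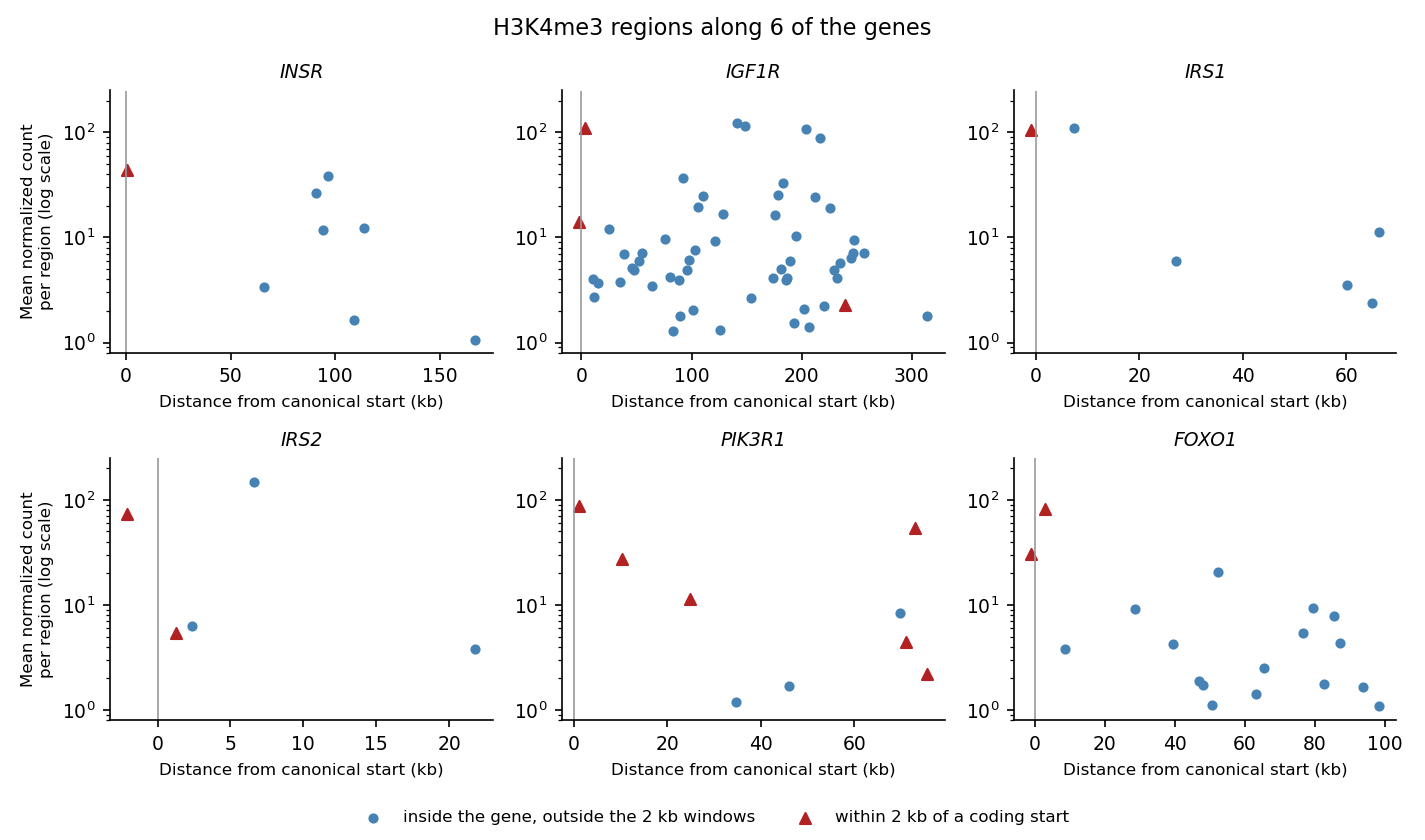
Mean normalized count on a log axis against the distance from the canonical start in kb, for each H3K4me3 region of 6 genes, with red triangles for regions within 2 kb of a coding start and blue points for the others. IGF1R has 54 blue points with means of up to 122, IRS2 a blue point at 149 above its triangles, and PIK3R1 a row of 6 triangles along the gene.

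The other genes of the pathway were read from lists of 63 genes, of which 57 had a region at a start, 90.5% against the 74.0% of all protein-coding genes, with a median of 21.2 counts per kb. Of these 57, 33 lay above the median of all genes. The ligands and other receptors were the lowest list, with a median of 14.0 and 0 of 3 above the median of all genes. IGF1 had 6.59 counts per kb, and IGF2R, which clears IGF2 from the cell surface, had 15.4. The main region of IGF2 had 14.0 and was the same region as that of INS, so its signal cannot be assigned to either gene.

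Among 12 adaptors and PI3K genes all had a region, with a median of 21.0. The extremes were IRS4, a further IRS adaptor, with 3.07 counts per kb, and SHC1, an adaptor to the RAS pathway, with 68.5 in a region shared with CKS1B. Against PIK3R1 at 15.5, the other regulatory subunits PIK3R2 and PIK3R3 had 44.8 and 21.8. IRS4 was thus low where IRS1 and IRS2 were near 24.

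All 14 genes of the list of AKT regulators and substrates had a region, with a median of 20.7 and 9 above the median of all genes. MLST8, a subunit of the mTOR complexes, was lowest with 9.01, and RHEB, the GTPase that activates mTOR, highest with 40.3.

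Of 13 negative regulators 11 had a region, beside the same 74.0%, with a median of 24.1. TRIB3, a pseudokinase that binds AKT, was lowest with 8.09, and DEPTOR, an mTOR inhibitor, highest with 31.1. The lipid phosphatase gene INPP5D, known from blood cells, and SOCS3, an inhibitor of cytokine and insulin signalling, had no region. FOXO4 had 15.4 and FOXO6 had no region, so FOXO1 and FOXO3 were the FOXO genes with the highest levels per kb.

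Of 19 FOXO target genes 16 had a region, again beside 74.0%, with a median of 22.5 and 10 above the median of all genes. BBC3, a cell death gene, was lowest with 11.2 counts per kb, and SESN3, a stress-response gene, highest with 44.1. G6PC1 and PCK1, the gluconeogenic targets of liver, and TRIM63, a ubiquitin ligase gene of muscle, had none.

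**Figure D5:**
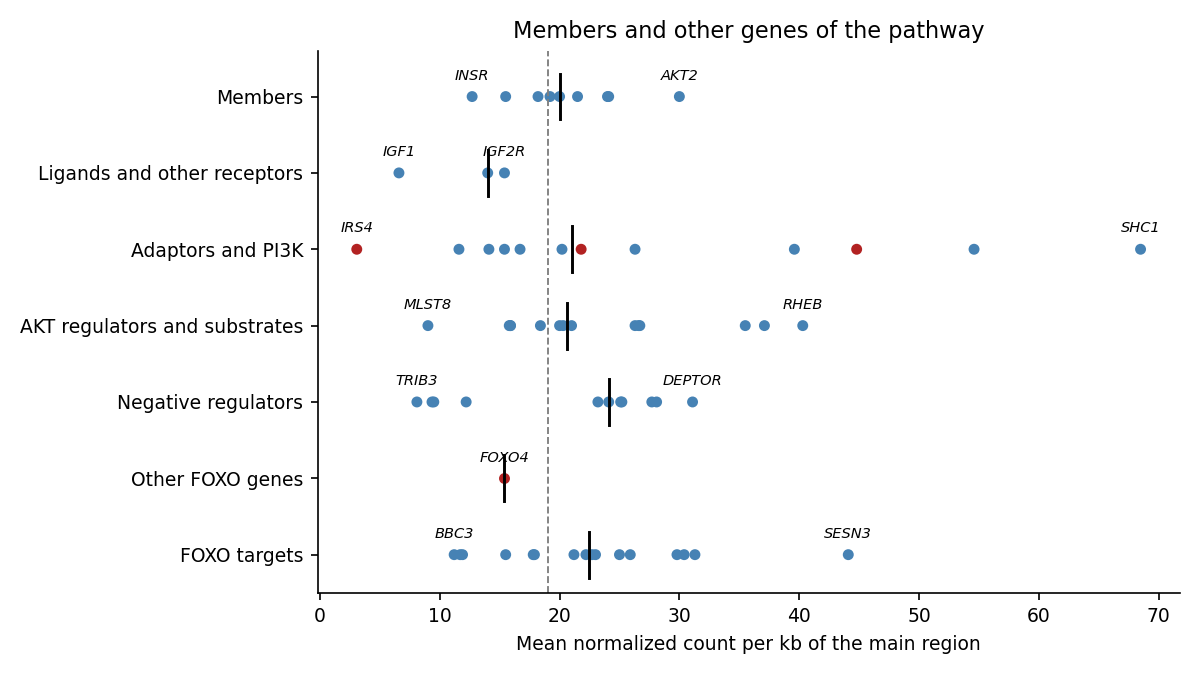
Mean normalized count per kb of the main region for the 9 genes and for the 6 lists of other pathway genes, a point per gene, with red for the named paralogues of the 9 (IRS4, PIK3R2, PIK3R3 and FOXO4), a black bar at the median of each list and a dashed line at the 19.0 of all protein-coding genes. The ligands and other receptors lie to the left of the dashed line, and SHC1 at 68.5 is the farthest to the right.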

How the data were processed

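MINT-ChIP reads of the 24 samples were demultiplexed with bcl2fastq, aligned by the authors to hg38 with Bowtie2 and processed with samtools, and H3K4me3 peaks were called with HOMER. The signal deposited by the authors is the mean, over the compared H3K4me3 samples, of read counts per region divided by DESeq2 size factors. How peaks were merged and how duplicates were treated for H3K4me3 is not given in the sources used here. The remaining 5 columns hold the authors' comparison of the states (fold change, its error, statistic and p-values) and were not used, so no test between the states was made. The labels give 1 mM 4-OHT and the study's methods micromolar 4-OHT. Whether samples were separate cultures is not stated. Of the regions, 37.1% were exactly 500 bp wide. Coordinates are printed as deposited, and whether they count from 0 or 1 is not stated.

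Regions were linked to transcript starts of GENCODE release 44 within 2000 bp with Python 3.11.15, numpy 2.4.6 and pandas 2.3.3, and plotted with matplotlib 3.10.9, after the linking was tested on simulated data. The canonical start is that of the transcript tagged as canonical there. GC content came from hg38, promoters from RefSeq. Percentiles are over 14586 genes with a region. From each list the highest and lowest gene per kb, genes without a region and paralogues of the 9 were named, and some list genes are not reported here. The genes and lists were chosen with earlier results of these data known. The precision of a value could not be given without counts per sample.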

Additional observations from a re-analysis of the deposited data

How the results depend on the processing

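Under 10 other settings all 9 genes had a region, and 157 of 165 values stayed within 1.5 times of those above. The settings were windows of 1 and 5 kb, starts of all transcripts or of the canonical one, the region nearest to a start, all regions of a gene summed, a floor of 10 on the mean, no regions of 500 bp, regions lying mostly inside the window and, chosen after seeing the data, no starts of transcripts tagged incomplete. Part of the agreement was fixed in advance. The main regions of the 9 genes had means of at least 39.9 and widths of at least 1997 bp. The floor of 10 and the removal of 500 bp regions could therefore not change them. The median of the 9 genes ranged from 16.0 to 20.0 counts per kb and that of all genes from 17.7 to 20.9. Keeping only regions lying mostly inside the window gave 16.0 against 18.8 and moved 5 of the 8 values, by dropping the main region of IGF1R (9.91 in place of 21.5 per kb) and of IRS2 (7.97 in place of 24.1): 3 in place of 6 genes lay above the median of all genes, IGF1R over INSR became 0.78 and IRS1 over IRS2 3.01. Windows of 5 kb moved IRS1 over IRS2 to 0.586 and left 1 gene with a stronger region inside, and the floor of 10 left 2 genes with a gap at the start. Ratios and these counts under other settings were added after seeing the data. Not divided by width, the median of the 9 genes was 81.0 against 49.3 for all genes. Leaving out samples was not run, since the table holds no values per sample, and sampling error could not be estimated. The sample labels number the replicates of each state, but no paired analysis was possible because the table pools all samples in its mean.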
